A study of Mus musculus with 8 samples.

Results

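The genes described here encode proteins that coat lipid droplets, release fatty acids from them and carry those fatty acids into mitochondria. The rule for the group names 10 mouse genes, which were chosen by role and from their differences between knockout and control cortex in these same libraries. Of these, 9 were found by symbol among the 28732 genes of the count table (Plin2, Plin3, Plin4, Plin5, Hilpda, Pnpla2, Cpt1a, Acot1 and Ucp2), and the other gene is not analysed here. Because the contrast between knockouts and controls helped to choose them, their values in it are given as a description, and their calls in the fit over all genes are counted once, beside the background, without being a test of them.

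RNA was sequenced from the cerebral cortex of mice at postnatal day 90 (12 to 14 weeks in the series text). The 4 knockout libraries came from Cdh5-CreER::Tak1fl/fl mice, in which a recombinase switched on by tamoxifen is driven by the promoter of an endothelial cadherin gene and can delete Tak1, a stress and cytokine signalling kinase. The 4 control libraries came from Tak1fl/fl littermates without the recombinase, so that both groups carried floxed Tak1 alleles and both received tamoxifen. The effect of carrying the recombinase and that of deleting Tak1 therefore cannot be told apart. The labels do not say that every library is a separate animal, and the spread between libraries may be partly technical. Libraries are named by group and by their number in the deposited table, 2 to 5 for knockouts and 1 to 4 for controls.

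Cells store fatty acids as triglyceride in lipid droplets, whose surface is covered by perilipins. Adipose triglyceride lipase starts the breakdown of the stored fat, and carnitine palmitoyltransferase 1 gates the entry of the freed fatty acids into mitochondria for oxidation. Many genes of this route are known targets of the PPAR nuclear receptors, which fatty acids activate. In brain, droplets are found mainly in glial and ependymal cells.

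The libraries held 13483354 to 17728963 counts. Tak1 itself, listed as Map3k7, stood at 35.3, 37.4, 42.6 and 40.0 CPM (counts scaled to a common library size) in knockouts 2 to 5 and at 41.6, 36.2, 39.6 and 42.7 CPM in controls 1 to 4, and since whole cortex was measured this does not check a deletion in vessels. Mitochondrially encoded genes took 29.4% to 32.8% of counts in knockouts and 21.5% to 28.9% in controls. Summed over 6 choroid plexus markers, levels were 375 to 536 CPM in knockouts against 12.0 to 186 CPM in controls (3 of 6 markers rose), and summed over 6 microglia markers they were 125 to 246 CPM in knockouts against 251 to 350 CPM in controls (0 of 6 passed). The sums of endothelial, mural, astrocyte, oligodendrocyte, precursor, neuron, fibroblast and red blood cell markers overlapped between the groups. Of single markers, 2 endothelial genes rose and 1 fell (of 8), 2 astrocyte genes rose (of 8), 1 oligodendrocyte gene rose and 1 fell (of 6), and 1 neuron gene fell (of 7). Cdh5, the endothelial gene whose promoter drives the recombinase, stood at 25.5, 16.8, 11.1 and 27.4 CPM in knockouts 2 to 5 and at 9.28, 9.60, 11.3 and 10.8 CPM in controls 1 to 4 (log2 0.98 ± 0.24, adjusted p = 0.0377 in edgeR), with knockout 4 among the controls. In bulk tissue, more cells of a type and more RNA per cell cannot be told apart.

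The 3 genes with the largest log2 differences between the groups were Plin4, Pnpla2 and Ucp2, and their promoters are shown for that reason, together with that of Hilpda, a known target of hypoxia-inducible factors. Each line gives the 250 bases before the transcription start on the gene's own strand, from RefSeq on GRCm38.p6: Plin4 at chr17:56109783-56110032 on the minus strand, Pnpla2 at chr7:141454938-141455187, Ucp2 at chr7:100493108-100493357 and the second annotated start of Hilpda at chr6:29272376-29272625, these on the plus strand. Capitals mark ACGTG, the only form of the core of the hypoxia response element that was searched.
Plin4: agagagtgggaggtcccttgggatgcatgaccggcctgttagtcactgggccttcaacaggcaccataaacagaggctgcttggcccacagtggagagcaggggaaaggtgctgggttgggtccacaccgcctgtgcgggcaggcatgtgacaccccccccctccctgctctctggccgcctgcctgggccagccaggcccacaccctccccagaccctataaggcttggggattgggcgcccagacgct
Pnpla2: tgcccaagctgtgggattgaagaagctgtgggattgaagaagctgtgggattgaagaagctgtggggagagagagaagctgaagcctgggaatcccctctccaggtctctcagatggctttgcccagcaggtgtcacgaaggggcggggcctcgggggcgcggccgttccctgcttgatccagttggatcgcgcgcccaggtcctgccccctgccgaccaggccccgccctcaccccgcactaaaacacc
Ucp2: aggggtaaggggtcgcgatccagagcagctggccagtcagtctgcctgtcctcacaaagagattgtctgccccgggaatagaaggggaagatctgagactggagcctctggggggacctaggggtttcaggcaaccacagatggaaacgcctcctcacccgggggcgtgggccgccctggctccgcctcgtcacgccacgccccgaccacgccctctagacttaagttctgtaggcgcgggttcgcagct
Hilpda: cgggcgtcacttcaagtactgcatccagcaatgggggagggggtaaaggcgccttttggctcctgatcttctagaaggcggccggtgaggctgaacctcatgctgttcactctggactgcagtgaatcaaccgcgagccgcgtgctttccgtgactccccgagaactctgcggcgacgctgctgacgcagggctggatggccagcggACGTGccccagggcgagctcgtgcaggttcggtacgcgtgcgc

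Promoter windows were found in RefSeq for all 9 genes, 11 windows in all, each reaching from 250 bases before to 50 bases after a start. They were searched on both strands for the direct repeat bound by PPAR with its partner RXR (AGGTCANAGGTCA), its half-site AGGTCA, the palindrome bound by the glucocorticoid receptor (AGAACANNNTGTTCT), its half-site AGAACA and the hypoxia core ACGTG, where each half-site is part of its full motif. None of the 11 windows held either full motif, which 0.0396% and 0.00913% of all 32851 mouse windows held. The half-site AGGTCA stood in the windows of Plin2, Plin5 and Cpt1a (16.3% of all windows hold it), and AGAACA in that of Acot1 (19.0% of all windows). ACGTG lay at bases -43 to -39 of the Hilpda window printed above and on both strands across the start of Plin2, where the matches overlap (19.6% of all windows). Plin4, Pnpla2, Ucp2 and Plin3 held none of the 5 motifs in this window. These are matches of letters, and other spellings of these motifs and binding sites farther away were not searched.

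Among the perilipins, the family that coats lipid droplets, Plin4 differed most. Plin4 (ENSMUSG00000002831, chromosome 17, 56100591 to 56109803, GRCm38) encodes a perilipin with a long run of amphipathic repeats that coats small droplets. It stood at 21.6, 22.4, 21.2 and 19.5 CPM in knockouts 2 to 5 and at 5.61, 1.63, 2.13 and 2.90 CPM in controls 1 to 4. Every knockout lay above every control, and the knockouts were close to each other (coefficient of variation 5.66%) while the controls were spread (57.7%), with control 1 highest. The difference was 2.80 ± 0.30 on the log2 scale (SE), or 6.98-fold, and it rested on 370, 295, 363 and 288 counts in knockouts and 78, 26, 39 and 43 counts in controls.

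The other perilipins differed less and overlapped between the groups. Plin2, the perilipin found on droplets of most cell types, stood at 3.44, 1.82, 2.28 and 3.46 CPM in knockouts 2 to 5 and at 2.37, 2.01, 2.35 and 1.62 CPM in controls 1 to 4. Knockouts 2 and 5 lay above all controls, while knockouts 3 and 4 lay among them, with a log2 difference of 0.40 ± 0.27. Plin3, a widely expressed perilipin that moves between cytosol and droplets, stood at 6.06, 7.67, 6.09 and 9.77 CPM in knockouts and 5.03, 4.96, 6.35 and 3.37 CPM in controls. Knockouts 3 and 5 lay above all controls, and knockouts 2 and 4 lay below control 3, for a log2 difference of 0.58 ± 0.22. Plin5, which ties droplets to mitochondria in oxidative tissues, had only 9, 13, 9 and 8 counts in knockouts and 2, 9, 2 and 5 counts in controls. It did not pass the filter on low counts, and its log2 difference of 1.12 ± 0.59 comes from a fit without that filter.

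Plin4 and Plin5 are neighbours on chromosome 17, 1797 bases apart on the same strand, and Plin3 lies 159879 bases beyond Plin5. Compared per length, with the scaled CPM divided by the exon length in kilobases (FPKM), the summed perilipin level was 6.72 ± 0.44 FPKM in knockouts and 2.57 ± 0.44 FPKM in controls (SD, n = 4 each). Plin4 made up 54.9% ± 5.47 of that sum in knockouts and 20.4% ± 9.65 in controls, with 46.9% to 59.4% and 11.6% to 31.9% as the ranges. Plin3 was the largest part in controls, at 28.9% ± 5.06 in knockouts and 50.6% ± 8.13 in controls, and Plin2 made up 11.7% ± 3.32 in knockouts and 23.2% ± 0.86 in controls. Plin5 was the smallest part by mean in each group, at 4.59% ± 1.52 in knockouts and 5.82% ± 4.51 in controls. These shares depend on the gene length: with the longest transcript, a choice made after seeing the data, Plin2 made up 19.3% ± 5.09 in knockouts and 35.3% ± 1.02 in controls, and Plin4 made up 49.4% ± 5.53 in knockouts and 16.8% ± 8.08 in controls.

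**Figure D1:**
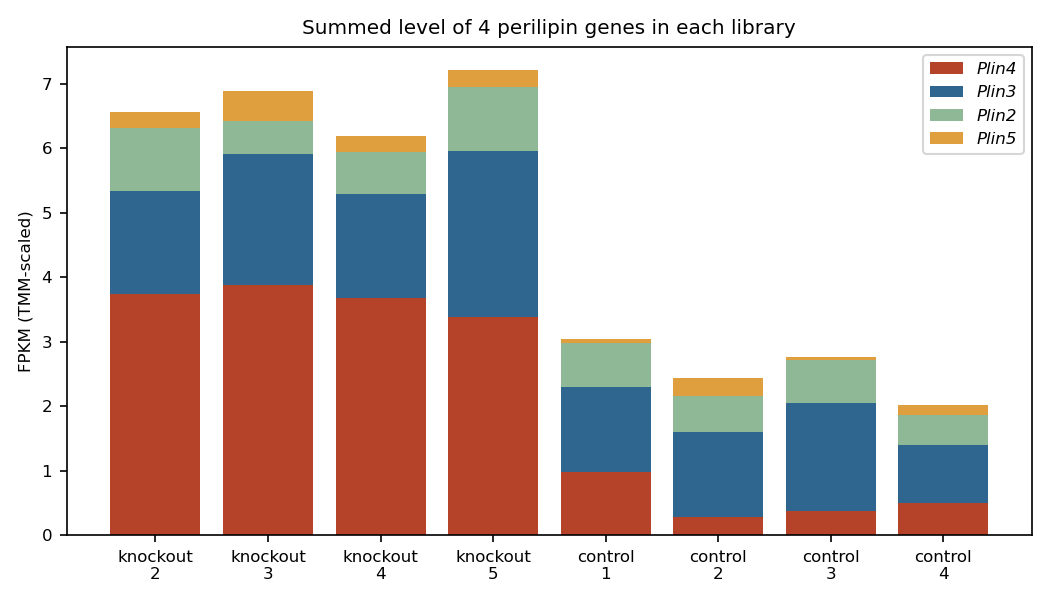
Stacked bars give the TMM-scaled FPKM of Plin4, Plin3, Plin2 and Plin5 in each of the 4 knockout and 4 control libraries. The knockout bars reach 6.19 to 7.21 FPKM against 2.02 to 3.05 FPKM in controls, and the Plin4 segment accounts for most of the difference.

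Among the genes that release fatty acids, Pnpla2 was higher in every knockout. Pnpla2 (ENSMUSG00000025509, chromosome 7, 141455198 to 141460743) encodes adipose triglyceride lipase, which takes the first fatty acid off triglyceride. It stood at 38.9, 47.6, 16.4 and 48.6 CPM in knockouts 2 to 5 and at 11.1, 8.41, 11.8 and 13.1 CPM in controls 1 to 4. The groups did not overlap, but knockout 4 lay nearer to the controls than to the other knockouts. The log2 difference was 1.77 ± 0.31, or 3.40-fold. It was 2.02 without knockout 4, the highest of the values that leave out 1 library, and 1.62 without knockout 5, the lowest.

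Hilpda (chromosome 6, 29272488 to 29275446) encodes a small droplet protein that inhibits that lipase and is known to be induced by hypoxia and fatty acids. It stood at 0.875, 0.987, 1.05 and 2.10 CPM in knockouts 2 to 5 and at 0.575, 0.314, 0.985 and 0.405 CPM in controls 1 to 4. Knockout 5 was highest and knockout 2 lay below control 3, so the groups overlapped. The log2 difference was 1.10 ± 0.45 and rested on 8 to 31 counts in all but 2 libraries, controls 2 and 4, which had 5 and 6. Without knockout 5 it was 0.74.

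Among the genes of mitochondrial fatty acid use, Ucp2 differed most. Ucp2 (ENSMUSG00000033685, chromosome 7, 100493337 to 100502020) encodes uncoupling protein 2, a carrier of the inner mitochondrial membrane linked to the burning of fatty acids. It stood at 23.4, 18.1, 15.2 and 24.2 CPM in knockouts 2 to 5 and at 7.41, 6.09, 6.35 and 6.61 CPM in controls 1 to 4. Every knockout was above every control, with knockout 4 the lowest knockout, and the log2 difference was 1.61 ± 0.17, or 3.06-fold. Its exons share 305 bases (4.36% of their union) with Dnajb13 on the opposite strand, which averaged 0.425 ± 0.268 CPM in knockouts and 0.192 ± 0.147 CPM in controls, and whether counting used strand is not given in the sources used here. Its neighbour Ucp3 averaged 1.73 ± 0.31 CPM in knockouts and 1.63 ± 0.62 CPM in controls.

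Cpt1a (chromosome 19, 3322334 to 3385733), the form of carnitine palmitoyltransferase 1 found in liver and glia, stood at 24.1, 18.8, 20.95 and 28.0 CPM in knockouts 2 to 5 and at 16.1, 16.1, 18.8 and 15.0 CPM in controls 1 to 4. Knockout 3 lay just below control 3 and the other knockouts lay above all controls, for a log2 difference of 0.47 ± 0.15. Acot1 (chromosome 12, 84009490 to 84018371), a cytosolic enzyme that splits long-chain acyl-CoA into free fatty acid and coenzyme A, stood at 1.69, 2.96, 2.22 and 2.44 CPM in knockouts and at 1.22, 1.26, 1.26 and 1.28 CPM in controls. All knockouts lay above all controls, whose coefficient of variation was 1.94%, and the log2 difference was 0.88 ± 0.27 on 17 to 39 counts in a library. Acot1 lies in a cluster of near-identical genes, and how reads that fit several of them were counted is not given in the sources used here, so its value is uncertain. Its neighbours Acot2, Acot3 and Acot4 averaged 5.18 ± 0.86, 2.44 ± 1.06 and 3.455 ± 0.836 CPM in knockouts. In controls they averaged 4.55 ± 1.20, 1.23 ± 0.27 and 2.48 ± 0.34 CPM. Their log2 differences were 0.19, 0.97 and 0.47, with adjusted p values of 0.652, 0.106 and 0.222 in edgeR.

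**Figure D2:**
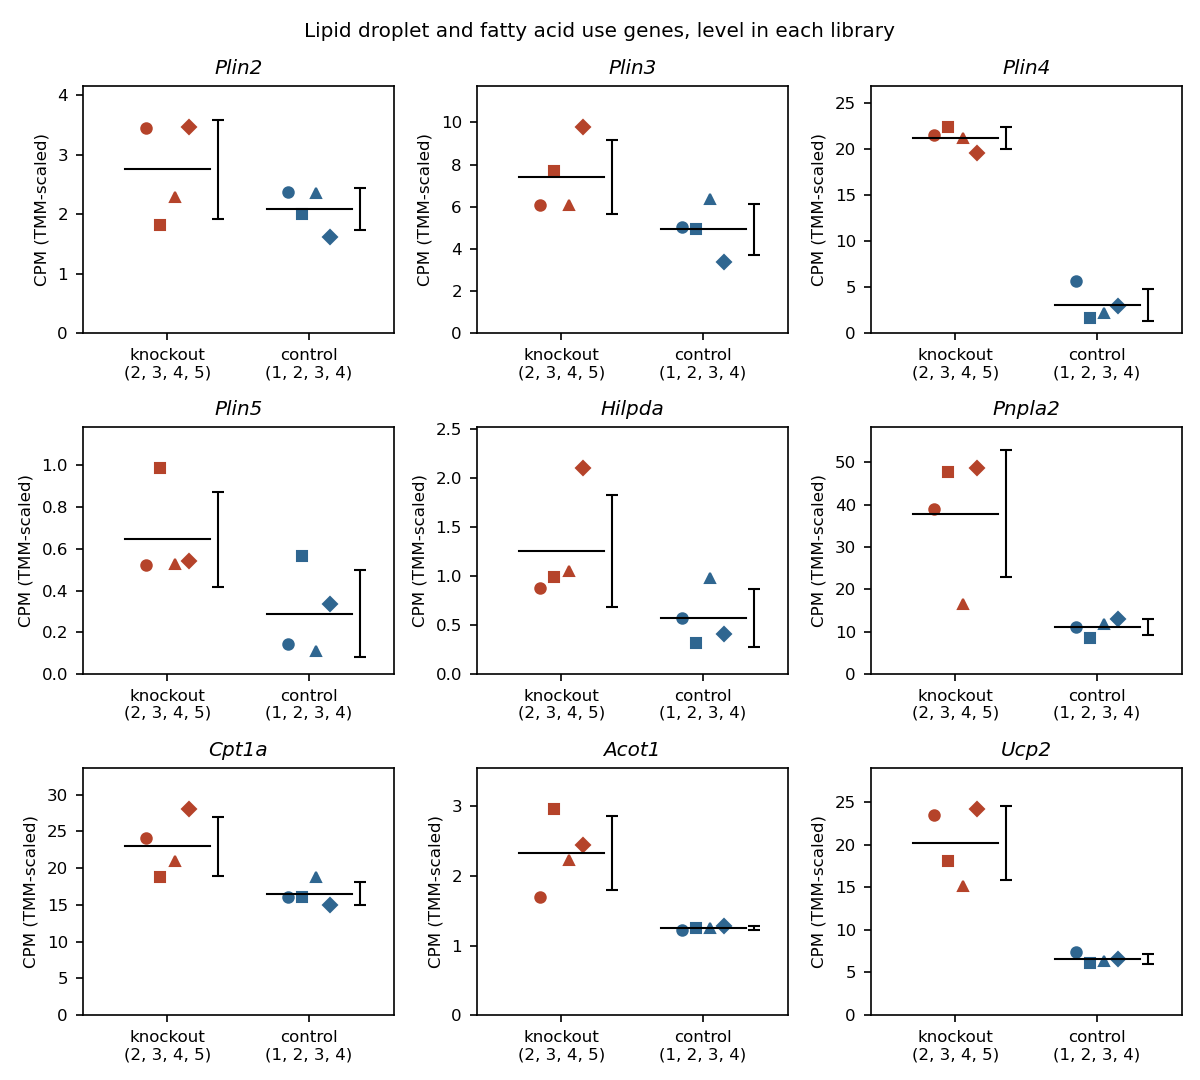
Each panel gives the TMM-scaled CPM of 1 gene in the 4 knockout libraries (red, left) and the 4 control libraries (blue, right), with circle, square, triangle and diamond in the order of the numbers under the axis, a bar at the mean and a whisker for the SD. The groups are separate in the panels of Plin4, Pnpla2, Acot1 and Ucp2 and overlap in the other 5.

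In total 4 of the 9 genes did not overlap between the groups, all with knockouts higher, a pattern that 8.58% of the 15564 tested genes showed. Of the 8 genes that passed the filter, Plin4, Pnpla2 and Ucp2 (3 genes) had an adjusted p under 0.05 in the edgeR fit over all genes, with knockouts higher, and 0 were called lower. The call of Pnpla2 was lost without knockout 5, control 1 or control 2, which left 2 calls. Cpt1a was added without knockout 3, without knockout 4, and with DESeq2 on all libraries, which made 4 each time. Of all tested genes 3.44% were called higher and 2.99% lower by the same rule. Nothing is read from these counts, since the genes were chosen with this contrast known. All 9 log2 differences were above 0, and the median of the 8 was 0.99, against -0.0021 over all tested genes. The authors' deposited table lists log2 fold changes of 2.80 for Plin4 (SE 0.28), 1.77 for Pnpla2 (SE 0.27), 1.62 for Ucp2 (SE 0.19) and 0.40 for Plin2 (SE 0.31). For Cpt1a it lists 0.48 (SE 0.17) with a DESeq2 adjusted p of 0.0454, under the threshold that the edgeR fit did not pass.

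**Figure D3:**
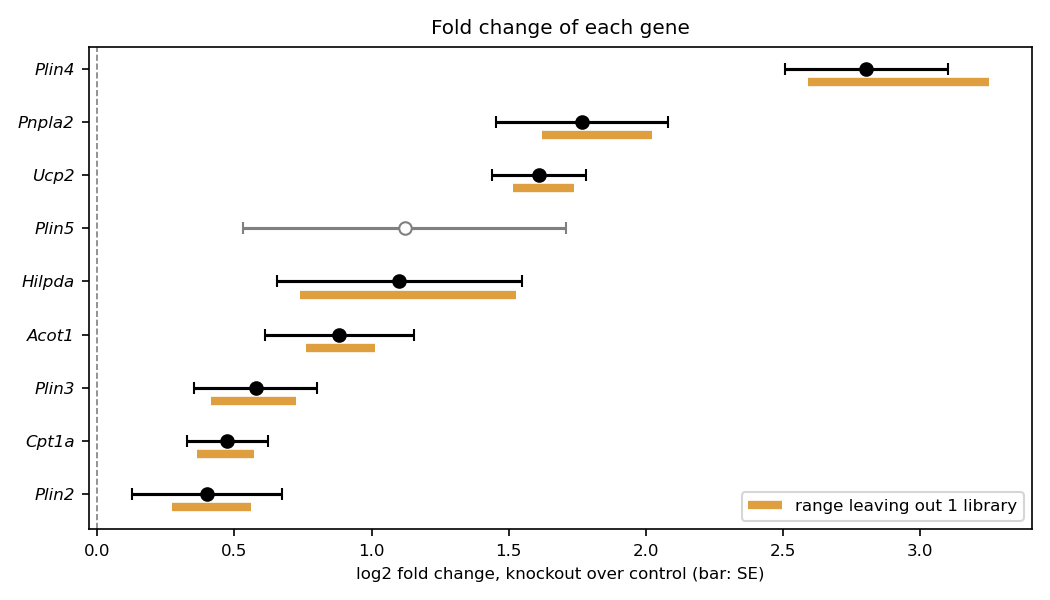
Points give the log2 fold change of each gene, knockout over control, with its SE, and orange bars the range when each library is left out in turn. Plin4 lies at 2.80, Pnpla2 at 1.77 and Ucp2 at 1.61, every orange bar stays above 0, and Plin5 (open point) comes from the fit without a filter and has no such bar.

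The knockout libraries did not order the genes alike. Knockout 5 was the highest knockout for 6 of the 9 genes and knockout 3 for 3 (Plin4, Plin5 and Acot1). Knockout 4 was the lowest knockout for Pnpla2 and Ucp2 but stood with the others for Plin4. Over all tested genes, the first principal component of log2 CPM (36.2% of the variance) put knockout 4 nearest to the controls, at -8.37. Knockouts 2, 3 and 5 lay at -24.85, -36.05 and -42.45, and controls 1 to 4 at 41.8, 35.4, 23.4 and 11.0. Control 4, whose choroid plexus sum of 186 CPM was far above those of controls 1 to 3 (12.0 to 18.3 CPM), stood within the range of those 3 controls for Plin4 and Ucp2 and was 13.1 CPM for Pnpla2, against 8.41 to 11.8 CPM in them. The part of choroid plexus RNA, of endothelial and microglia RNA and of the mitochondrial share in the differences of the group was not tested. The 4 adipocyte markers found summed to 1.11 to 5.70 CPM in knockouts and 0.540 to 1.51 CPM in controls. Of these, Cidea had 16 to 24 counts in knockouts and 7 to 19 in controls. Adipoq had at most 1 count and Cidec at most 3 in any library, while Plin1 had 60 counts in knockout 5 and at most 2 elsewhere.

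The order of the genes by level per length differed between the groups. In controls Pnpla2 was highest at 3.68 ± 0.65 FPKM, followed by Cpt1a at 2.16 ± 0.21, Plin3 at 1.30 ± 0.32 and Ucp2 at 0.946 ± 0.082 FPKM (SD, n = 4). Plin3 and Ucp2 overlapped in controls, whereas Pnpla2 and Cpt1a, and Cpt1a and Plin3, did not. Plin2 (0.595 ± 0.101 FPKM) lay wholly below Ucp2. Plin2 and Plin4 (0.531 ± 0.307) overlapped, as did Plin4 and Hilpda (0.517 ± 0.269) and Hilpda and Acot1, while Acot1 (0.320 ± 0.006) lay above Plin5 (0.138 ± 0.100 FPKM). In knockouts Pnpla2 again led at 12.5 ± 4.95 FPKM, and Plin4 was the next at 3.67 ± 0.21 FPKM, where it overlapped with Cpt1a (3.01 ± 0.53), and Cpt1a in turn with Ucp2 (2.89 ± 0.62 FPKM). With the longest transcript in place of the exon union as the length, Pnpla2 and Cpt1a overlapped in controls (4.23 ± 0.75 and 3.83 ± 0.37 FPKM) and Ucp2 stood above Plin3 by its mean. In knockouts that length put Plin4 (3.68 ± 0.21 FPKM) in place 4, wholly below Cpt1a (5.32 ± 0.93 FPKM) and overlapping with Ucp2 (5.07 ± 1.08 FPKM). The upper order therefore depends on the length used in both groups.

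**Figure D4:**
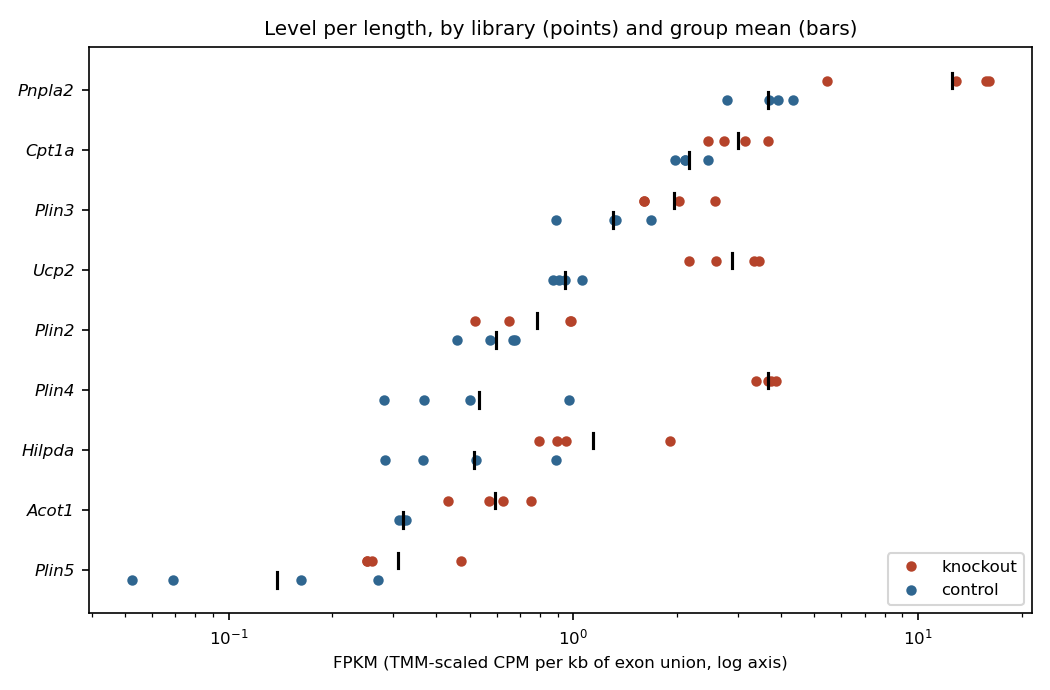
Points give the FPKM of each gene in each library on a log axis, knockouts in red above controls in blue, and black bars the group means. Genes run down the page by their control mean, and Plin4, at 0.531 FPKM in controls, moves furthest to the right, to 3.67 FPKM in knockouts.

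The 6 named genes with the pattern most like the mean of the 8 tested genes, among 9743 genes with a mean of at least 5 CPM, were Heph, Itih5, Rab31, Tsc22d3, Glul and Nt5dc3. Likeness was the root mean square difference between standardised log2 CPM over the 8 libraries, and it ran from 0.153 SD units for Heph to 0.206 for Nt5dc3. The mean pattern comes from genes chosen with this contrast known. Higher levels of these 6 genes in knockouts therefore follow from how they were picked and are not a separate result. Heph, which encodes the copper-dependent iron oxidase hephaestin, averaged 9.63 ± 2.10 CPM in knockouts and 4.84 ± 0.67 CPM in controls. Tsc22d3, a classic glucocorticoid-induced gene, averaged 70.1 ± 11.9 CPM in knockouts and 32.9 ± 3.31 CPM in controls. Itih5, Rab31, Glul and Nt5dc3 averaged 86.0, 60.0, 631 and 45.3 CPM in knockouts, against 50.5, 40.7, 423 and 34.9 CPM in controls. Of the group itself, Ucp2 was nearest to the mean pattern (0.278) and Plin2 farthest (0.718). Of the 9743 genes outside the group, 27 lay closer to that pattern than Ucp2 and 1267 closer than Plin2. The pattern is thus not particular to the group, although its tested genes form the mean.

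The other genes of lipid storage and use, taken from 9 lists made by role, mostly did not pass. The lists were made with earlier results of these data known, so their counts are a description and not a separate test of lipid genes. Of 157 listed genes 144 were found and 122 tested, of which 10 rose, 4 fell and 108 missed the threshold. These are 8.20% rising and 3.28% falling, beside 3.44% and 2.99% of all tested genes. Their median log2 fold change was 0.08, and 71 of the 122 were above 0, beside 49.8% of all tested genes. By list, those above 0 were 10 of 20 for droplet assembly, 6 of 12 for release, 6 of 16 for uptake, 17 of 23 for mitochondrial oxidation, 8 of 15 for peroxisomes, 7 of 11 for thioesterases, 5 of 6 for uncoupling proteins and carriers, 7 of 13 for PPAR receptors and 5 of 6 for other PPAR targets. Adjusted p values here come from the quasi-likelihood test of edgeR over all tested genes. These calls rest on few libraries: of the 13 called genes that the naming rule picks, 12 lost the call without control 2, 11 without knockout 5, 10 without control 1 and 8 without knockout 2, and Pdk4 kept it in all 12 alternatives. With no filter on low counts, 2 of these 13 genes, Rab18 and Acaa2, lost the call. Over all genes, 93 were called higher without control 2 and 109 without knockout 5, against 535 with all libraries.

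Genes of droplet assembly and triglyceride synthesis moved in both directions. The 20 tested genes had a median of -0.02: 3 rose, 2 fell and 15 missed the threshold. Dgat2, an enzyme that makes triglyceride, stood at 36.5, 33.8, 33.2 and 43.4 CPM in knockouts 2 to 5 and at 23.1, 24.0, 22.7 and 23.8 CPM in controls 1 to 4. It rose in all knockouts (0.65 ± 0.12, adjusted p = 0.0114, 0.0521 without control 2). The droplet protein gene Hsd17b11 (0.63 ± 0.15, adjusted p = 0.0302) and the droplet GTPase gene Rab18 (0.35 ± 0.09, adjusted p = 0.0428) also rose. Spg20, whose product spartin sits on droplets (-0.59 ± 0.15, adjusted p = 0.0351), and the sterol esterifying enzyme gene Soat1 (-0.47 ± 0.13, adjusted p = 0.0459) fell. Of the 12 alternatives, the call of Rab18 was lost in 8, that of Hsd17b11 in 5 and that of Spg20 in 4. The losses of Rab18 included the fit with no filter. The call of Soat1 was lost in 7 of 12 alternatives, among them upper-quartile scaling and the fits without knockout 2, 3 or 5 or without control 1, 2 or 3, with adjusted p values of 0.0177 to 0.128 over all 12.

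Of the 12 tested genes that free fatty acids inside the cell, 0 passed, with a median of 0.06 and the smallest p in the lipase gene Abhd12 (0.35 ± 0.10, adjusted p = 0.0579). The direct partners of the lipase encoded by Pnpla2, named for their role after their values were seen, were its activator Abhd5, at 12.2 ± 2.55 CPM in knockouts and 11.0 ± 1.71 CPM in controls, and its inhibitor G0s2, at 3.46 ± 1.52 CPM in knockouts and 3.55 ± 0.62 CPM in controls. Hormone-sensitive lipase, Lipe, which acts after it, stood at 3.89 ± 0.27 CPM in knockouts and 2.90 ± 0.49 CPM in controls (adjusted p = 0.213). Of 16 tested genes of lipoprotein lipase and fatty acid uptake, the transporter gene Slc27a1 rose (0.64 ± 0.14, adjusted p = 0.0200) and the fatty acid binding protein gene Fabp7, a marker of radial glia and astrocytes, fell. Fabp7 stood at 4.43, 4.10, 3.80 and 2.99 CPM in knockouts and at 7.70, 11.7, 8.48 and 5.80 CPM in controls (-1.14 ± 0.23, adjusted p = 0.0153). The median of that list was -0.10.

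Among 23 tested genes of the carnitine shuttle and mitochondrial beta-oxidation, Acaa2, the thiolase of the last step, rose (0.56 ± 0.15, adjusted p = 0.0410), 0 fell and 22 did not pass. The median of the list was 0.30. Of 15 peroxisomal genes, Crot, the carnitine octanoyltransferase, rose (0.48 ± 0.11, adjusted p = 0.0214, median 0.03). Of 11 other acyl-CoA thioesterases, Acot11 rose (0.48 ± 0.13, adjusted p = 0.0431, median 0.15). Of 6 uncoupling proteins and nucleotide carriers other than Ucp2, 0 passed, with the smallest p in Slc25a4 (0.26 ± 0.10, adjusted p = 0.117, median 0.15).

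Of 13 PPAR receptors and cofactors, the corepressor gene Nrip1 rose (0.51 ± 0.12, adjusted p = 0.0236) and the retinoid receptor gene Rxrg fell (-0.77 ± 0.20, adjusted p = 0.0402), with a median of 0.08. Among 6 other textbook PPAR targets 2 rose, with a median of 0.35. Pdk4, a kinase that turns glucose oxidation down in favour of fat, stood at 36.8, 32.3, 23.6 and 37.1 CPM in knockouts and at 15.2, 13.2, 10.2 and 12.7 CPM in controls (1.34 ± 0.17, adjusted p = 0.00333), and is also a known glucocorticoid target. All knockouts lay above all controls for Pdk4.

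**Figure D5:**
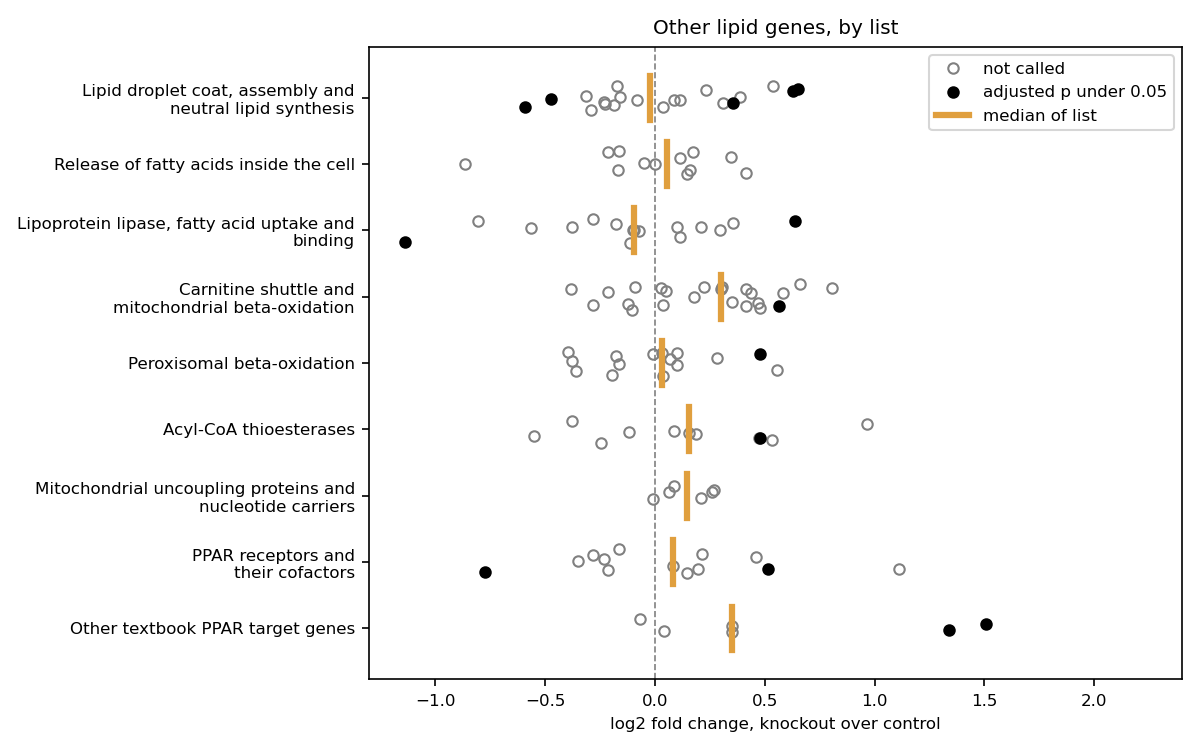
Each point is the log2 fold change, knockout over control, of 1 tested gene in 1 of the 9 lists, filled where its adjusted p is under 0.05, with an orange bar at the list's median. Filled points lie on both sides of 0 in 3 lists, and Pdk4 lies at 1.34 in the bottom row.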

How the data were processed

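Total RNA of cerebral cortex was sequenced in 4 knockout and 4 control libraries. Per the submitters' processing notes, FastQC, HISAT or HISAT2 with GRCm38, featureCounts and DESeq2 were used, with no version. Per the labels' protocols, the kit used is one named for ChIP sequencing. The deposited values are whole-number counts per gene, not normalized. The authors also deposited a mean signal per gene, a log2 fold change with its error, a score (log2 fold change over error) and p-values. Of 29012 lines, 280 repeats were removed, and GENCODE M21 named 28682 of 28732 genes.

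Genes were kept with filterByExpr (15564 kept), scaled by TMM and tested in edgeR 4.0.16 (quasi-likelihood, robust, no covariate, R 4.3.3) with Benjamini-Hochberg adjustment. SE is the log2 fold change divided by the square root of F. The genes and lists were chosen with earlier results of these data known. Genes named are the group itself, up to 4 called genes of each list (otherwise that with the smallest p) and the 6 nearest patterns. Plin1, Cidea, Ppara, Lrg1, Soat1, Abhd5, G0s2, Lipe and the neighbours of Acot1 and Ucp2 were named after their values were seen. The procedure was tested on counts simulated with the same dispersion for every gene and no further differences between libraries. That test cannot show how the procedure does with the spread of these libraries. Alternatives were DESeq2 size factors, upper-quartile factors, no filter, DESeq2 1.42.0, each library left out, and another gene length. Intervals and SE cover the spread between these libraries. Of the called list genes that the rule picks, 1 is not reported here.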

Additional observations from a re-analysis of the deposited data

Results flagged for a closer look

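In 48 groups of 4 libraries, for the genes named from the group and the lists, 3 held a library whose gap to the nearest other was too large a part of the group's range by Dixon's 95% critical value, which chance passes in about 5% of groups. Plin5 stood at 0.987 CPM in knockout 3, against 0.525 to 0.543 CPM in the other knockouts, which is 13 counts against 8 or 9. Hilpda stood at 2.10 CPM in knockout 5, against 0.875 to 1.05 CPM in the other knockouts. Nrip1 stood at 77.4 CPM in knockout 4, against 95.7 to 99.1 CPM in the other knockouts.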

How the results depend on the processing

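The log2 differences of the 8 tested genes of the group kept their sign under all 12 alternatives and ran from 2.59 to 3.25 for Plin4, from 1.62 to 2.02 for Pnpla2 and from 1.52 to 1.74 for Ucp2. The counts over all genes moved more, to 821 higher and 745 lower with no filter and to 967 and 857 with DESeq2. Leaving out 1 library gave 93 to 1012 higher and 35 to 1043 lower. Of the lists, 17 genes were called higher with DESeq2, and leaving out 1 library gave 1 to 17 higher and 0 to 6 lower. Without control 2, 1 list gene rose and 0 fell in edgeR's test, and without knockout 5, 2 rose and 0 fell. The cause was not tested. Of the 13 called list genes that the naming rule picks, Pdk4 alone kept its call in all 12 alternatives, and none changed sign. No paired analysis was possible because the labels give the groups different numbers. Counts of 2 to 39 in a library limit Plin5, Hilpda and Acot1.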

Other observations

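Plin1, the perilipin of fat cells, had 0, 0, 2 and 60 counts in knockouts 2 to 5 and 0, 0, 0 and 1 counts in controls 1 to 4, so that knockout 5 stood apart. Cidec and Adipoq, which fat cells also express, had 0 counts in that library. Cidea, the other adipocyte marker found, had 20, 16, 17 and 24 counts in knockouts 2 to 5. In controls 1 to 4 Cidea had 18, 10, 19 and 7 counts, so that knockout 5 was highest. Ppara, the PPAR most tied to fatty acid oxidation, stood at 1.75, 1.67, 2.69 and 10.6 CPM in knockouts 2 to 5 and at 2.30, 1.51, 1.75 and 2.16 CPM in controls 1 to 4, again with knockout 5 apart.

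Lrg1, which encodes a secreted glycoprotein of vessels and of the acute phase, lies 2081 bases beyond Plin5 on the same strand. It stood at 2.04, 1.37, 0.819 and 1.56 CPM in knockouts 2 to 5 and at 0.791, 0.251, 0.164 and 0.607 CPM in controls 1 to 4. Every knockout lay above every control, with a log2 fold change of 1.70 ± 0.48 and an adjusted p of 0.0527 in edgeR. On the other strand beside Plin4, Hdgfl2, which shares 17 exon bases with it, averaged 43.3 ± 17.1 CPM in knockouts and 55.2 ± 17.4 CPM in controls.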
